A study of Mus musculus with 6 samples.

Results

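The genes for DNA replication licensing and fork proteins encode the machinery that marks origins of replication, loads the MCM helicase on them, fires it and copies the DNA behind it. They were taken as a list of 46 named mouse genes and found by symbol, through the GENCODE M21 annotation, among the 54752 genes measured. Each symbol matched 1 gene identifier. All 46 passed the filter on low counts and stood among the 14726 genes tested.

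Replication is licensed in G1. The origin recognition complex (ORC) sits on the DNA, and CDC6 and CDT1 help it to load pairs of ring-shaped MCM2 to MCM7 helicases, a step that geminin blocks by binding CDT1. In S phase the kinase CDC7 with its activator DBF4 phosphorylates the MCM ring, CDC45 and the GINS complex join it, and the active helicase moves off ahead of the polymerases. Cells that leave the cell cycle generally stop making many of these proteins, and E2F factors switch their genes on again when cells return to it.

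The cells were 3T3-L1, an established clonal line of mouse embryo fibroblasts that can be turned into fat cells in culture. Groups were read from the sample titles and the cell type field, which hold 3 preadipocyte samples and 3 adipocyte samples, numbered 1 to 3 in each state. The strain label reads C57BL/6J and the tissue label Embryo for all 6, no treatment is named, and the medium text, with the unexplained abbreviation DMI, is the same for both states. The source label reads Adipocyte throughout, the day of harvest is not given in the sources used here, and whether replicates came from separate cultures is not stated. The p-values therefore weigh the difference against a spread that may be technical.

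The libraries held 22496486 to 26314076 expected counts. All 8 adipocyte markers checked (among them Adipoq, Fabp4 and Plin1) were higher in the adipocyte libraries, and all 8 preadipocyte and fibroblast markers (among them Dlk1 and Pdgfra) were lower. Of other cell types, macrophage markers summed to 5.14 to 6.69 CPM (counts per 1000000 counts of the TMM-scaled library) in preadipocytes and 1.77 to 3.64 CPM in adipocytes, with Adgre1 and Itgam at 0 counts. Endothelial markers summed to 0.545 to 0.909 and 0.280 to 0.692 CPM, with Tie1 at 0. Muscle markers summed to 0.0395 to 0.157 and 1.12 to 1.95 CPM, all of it from Acta1, with Myod1, Myog, Ckm and Myh3 at 0. Epithelial markers summed to 0 to 0.474 and 0.432 to 1.30 CPM, with Krt5 at 0, and neuronal markers to 19.1 to 21.5 and 3.74 to 5.45 CPM, mostly Map2 in preadipocytes and Snap25 in adipocytes, with Rbfox3 at 0. The part of these markers in the results below was not tested.

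In adipocytes, transcripts of most replication genes were lower. Of the 46 genes, 33 were lower in adipocytes, 7 were higher (Orc2, Orc3, Orc5, Cdc45, Gins1, Gins4 and Rfc1) and 6 did not pass the threshold (Mcm7, Gmnn, Orc4, Rfc4, Rpa3 and Pold2), by edgeR's quasi-likelihood F-test with an adjusted p under 0.05. Among all tested genes, 37.9% were lower and 35.7% were higher. The median log2 fold change, adipocyte over preadipocyte, was -1.15 for the 46 genes and -0.06 for all tested genes. CPM values of the 2 states did not overlap for 41 of the 46 genes, against 76.5% of all tested genes. At least a 2-fold fall was fitted for 25 genes and at least a 2-fold rise for 2, Orc5 and Gins1. Of all 14726 tested genes, 3211 were called lower and 2849 higher by at least 2-fold. RNA from bulk cultures cannot tell fewer cycling cells from less replication RNA per cell.

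The scaling between libraries moves this split. TMM factors, which edgeR uses to offset the few genes that fill much of a library, ran from 1.11 to 1.13 for preadipocytes and from 0.88 to 0.90 for adipocytes. Scaling by total counts shifted the fitted log2 fold change of a tested gene by -0.33 (the median of the shifts of all genes). Then 39 of the 46 genes were lower and 5 higher, against 50.8% lower and 26.6% higher of all tested genes. In limma on log2(TPM + 1), where TPM is the abundance of a transcript in a library after correction for its length, the median shift was -0.48. Then 38 of the 46 were lower and 3 higher, Orc5, Gins1 and Rfc1, against 56.6% lower and 22.2% higher of all tested genes. Upper-quartile scaling, with a median shift of -0.13, gave 36 lower and 7 higher. In every one of 17 other settings tried, 28 genes were lower and 3 were higher. The other 15 changed direction or call in at least 1 setting. No share of all tested genes is given for upper-quartile scaling or for calls kept in every setting.

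**Figure D1:**
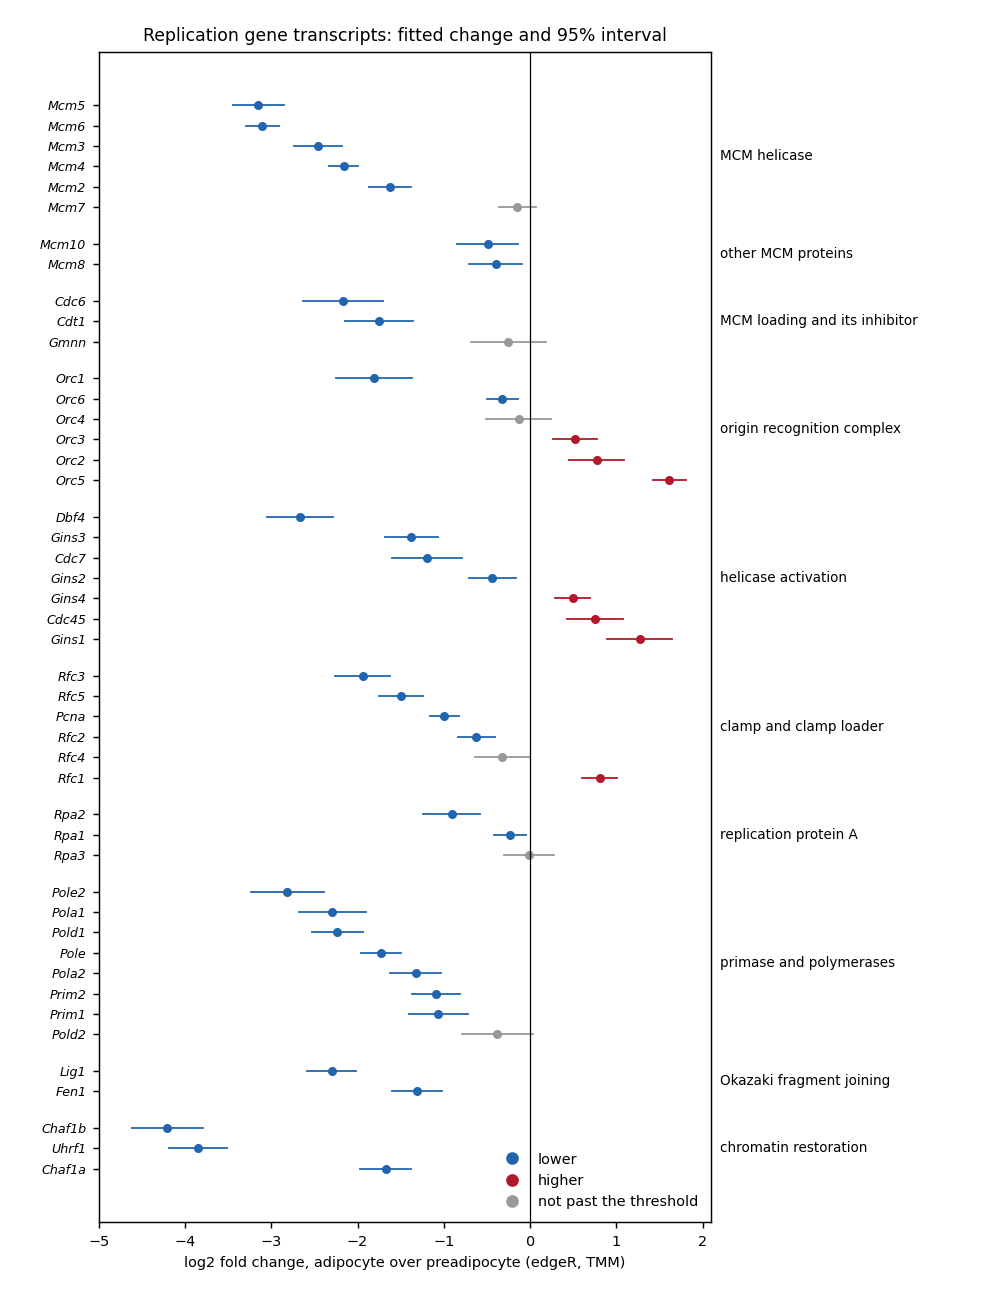
Fitted log2 fold change, adipocyte over preadipocyte, of each of the 46 genes with its 95% interval (edgeR, 3 libraries per state), grouped by role in replication. Blue genes were lower, red genes higher, and gray genes did not pass the threshold. Chaf1b lies furthest left at -4.21 and Orc5 furthest right at 1.61, and genes of both directions lie in the origin recognition, helicase activation and clamp loader groups.

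**Figure D2:**
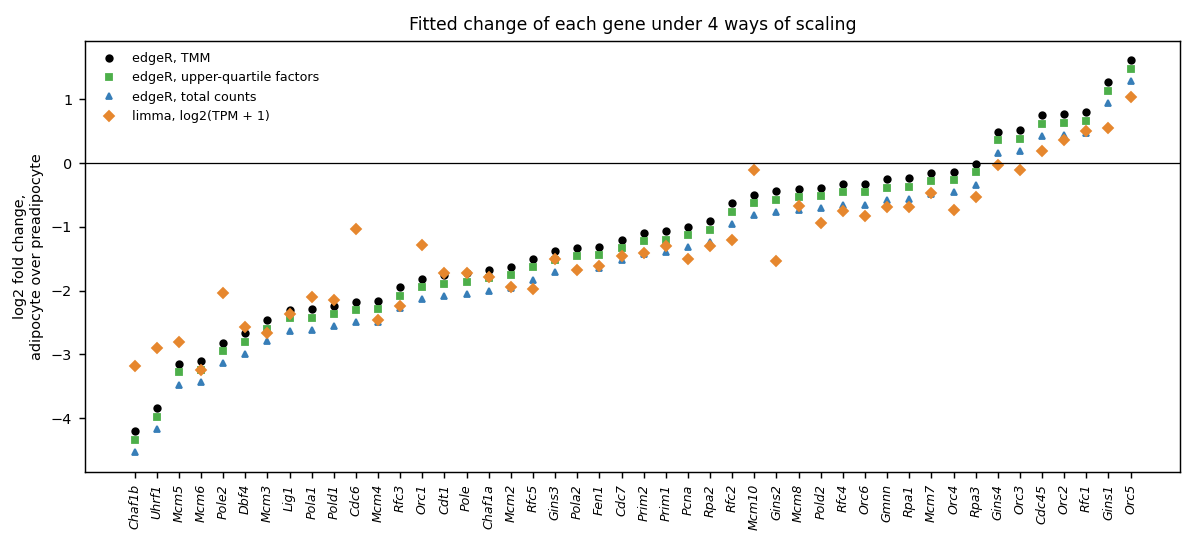
Fitted log2 fold change of each of the 46 genes under 4 ways of scaling, with genes ordered by the TMM value. Values by total counts lie below the TMM values throughout, and limma on log2(TPM + 1) puts Orc3 and Gins4 just below 0, at -0.10 and -0.03, where the other 3 ways put them above it.

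Promoter sequences were read for the genes that fell most in the first 4 steps of replication and for Orc5, which rose most, so that a reader can see the letters before the values. Windows of 300 bases, from 250 before to 50 after the start of transcription, came from RefSeq on GRCm38.p6, which held 48 windows for 38 of the 46 genes. They were searched on both strands for 4 forms of the E2F site, TTTCCCGC, TTTCGCGC, TTTGCCGC and TTTGGCGC, which can overlap one another. Matches are in capitals on the strand of the gene, and the window of Mcm7, the MCM gene that did not fall past the threshold, was added after its values were seen.
Mcm5, chr8:75109259-75109558, plus strand: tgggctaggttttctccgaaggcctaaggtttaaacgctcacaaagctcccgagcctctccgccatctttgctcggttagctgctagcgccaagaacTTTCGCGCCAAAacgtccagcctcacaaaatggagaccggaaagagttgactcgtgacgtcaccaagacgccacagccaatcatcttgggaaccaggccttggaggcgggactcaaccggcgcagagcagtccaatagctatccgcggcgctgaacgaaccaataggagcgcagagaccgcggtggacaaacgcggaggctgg
Cdc6, chr11:98907901-98908200, plus strand: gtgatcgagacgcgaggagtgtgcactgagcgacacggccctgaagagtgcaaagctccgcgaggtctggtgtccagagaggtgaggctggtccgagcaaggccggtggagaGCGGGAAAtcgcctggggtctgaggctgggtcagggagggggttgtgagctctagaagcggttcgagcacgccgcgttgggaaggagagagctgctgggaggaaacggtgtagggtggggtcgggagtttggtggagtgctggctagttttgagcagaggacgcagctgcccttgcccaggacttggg
Orc1, chr4:108579204-108579503, plus strand: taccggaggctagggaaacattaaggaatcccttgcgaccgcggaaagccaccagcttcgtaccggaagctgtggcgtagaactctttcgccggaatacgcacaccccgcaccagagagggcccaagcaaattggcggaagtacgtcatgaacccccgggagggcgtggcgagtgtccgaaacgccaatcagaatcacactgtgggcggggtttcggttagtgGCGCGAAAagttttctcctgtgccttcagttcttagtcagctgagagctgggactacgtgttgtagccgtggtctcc
Dbf4, chr5:8422667-8422966, minus strand: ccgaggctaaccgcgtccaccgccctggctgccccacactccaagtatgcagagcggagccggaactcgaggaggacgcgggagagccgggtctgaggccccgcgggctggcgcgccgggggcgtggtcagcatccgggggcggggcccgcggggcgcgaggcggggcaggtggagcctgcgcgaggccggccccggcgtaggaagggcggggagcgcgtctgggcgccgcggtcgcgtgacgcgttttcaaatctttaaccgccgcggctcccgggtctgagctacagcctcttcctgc
Orc5, chr5:22550289-22550588, minus strand: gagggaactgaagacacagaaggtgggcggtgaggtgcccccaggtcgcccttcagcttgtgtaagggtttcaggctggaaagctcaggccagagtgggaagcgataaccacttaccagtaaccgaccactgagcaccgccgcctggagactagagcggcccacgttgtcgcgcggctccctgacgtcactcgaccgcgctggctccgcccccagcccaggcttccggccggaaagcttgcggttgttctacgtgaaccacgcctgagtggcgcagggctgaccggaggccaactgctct
Mcm7, chr5:138171834-138172133, minus strand: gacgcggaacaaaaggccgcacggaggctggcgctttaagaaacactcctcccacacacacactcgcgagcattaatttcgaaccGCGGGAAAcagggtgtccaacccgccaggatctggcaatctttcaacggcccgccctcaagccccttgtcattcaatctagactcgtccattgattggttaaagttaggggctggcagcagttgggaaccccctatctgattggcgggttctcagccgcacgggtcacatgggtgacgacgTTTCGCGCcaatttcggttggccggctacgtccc

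The Mcm5 window holds 2 overlapping matches, whose first letters lie 153 and 149 bases before the start. Cdc6 has 1 match at 138 bases and Orc1 has 1 at 27 bases before the start. The Mcm7 window has 2, at 165 bases before and 16 bases after the start, although a second RefSeq start of Mcm7 has none in its window. Neither Dbf4 nor Orc5 has these letters in its window.

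An E2F match was found in 16 of the 48 windows of replication genes, or 33.3%, each in a different gene. Over all 32851 windows of the table the share was 2.26%, and over the 13184 windows of tested genes it was 3.82%. By call, 14 of the 28 lower genes with a window had a match, as had 2 of the 10 others, Mcm7 and Orc3. The median log2 fold change was -2.20 for the 16 genes with a match and -0.70 for the genes without, given as a description with no test. CCAAT, the letters read by NF-Y, stood in 56.3% of these windows against 37.4% of all windows. GGGCGG, the Sp1 box, stood in 75.0% against 35.7% of all windows and 61.0% of those of tested genes. TTTGAA, a core of the cell cycle homology element, stood in 16.7% against 17.9% of all windows and 12.4% of those of tested genes. By the same split, CCAAT stood in 17 of the 28 lower genes and 7 of the 10 others. GGGCGG stood in 21 and 9 of them, and TTTGAA in 5 and 2. Median log2 fold changes with and without the letters were -0.95 and -1.63 for CCAAT. They were -1.26 and -1.40 for GGGCGG and -1.31 and -1.33 for TTTGAA. No share of all lower genes with a match is given, and a link between match and call was not tested. A match is only a match of letters and no binding was measured.

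The MCM2 to MCM7 ring, the replicative helicase, split between 5 subunit genes and 1. Mcm2, Mcm3, Mcm4, Mcm5 and Mcm6 fell and Mcm7 did not pass the threshold, with a median log2 fold change of -2.31 over the 6 genes.
Mcm5 (ENSMUSG00000005410.6, chr8:75109569-75128439, plus strand of GRCm38) had 18.2, 15.6 and 16.3 CPM in preadipocyte libraries 1, 2 and 3 and 1.95, 1.87 and 1.82 CPM in adipocyte libraries 1, 2 and 3. The lowest preadipocyte library stood far above the highest adipocyte library. Its fitted log2 fold change was -3.15 (SE 0.127, edgeR adjusted p = 5.55e-08), an 8.88-fold fall. Mcm6 fell almost as far, with a log2 fold change of -3.10 (SE 0.0855), to 6.23 ± 0.280 CPM (SD, n = 3). For Mcm3, Mcm4 and Mcm2 the log2 fold changes were -2.46, -2.16 and -1.63.

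Mcm7 (ENSMUSG00000029730.16, chr5:138164583-138172422, minus strand) had 50.0, 42.3 and 46 CPM in preadipocyte and 45.3, 40.2 and 39.2 CPM in adipocyte libraries. The 2 states overlapped. The log2 fold change was -0.15 (95% interval -0.37 to 0.06, edgeR adjusted p = 0.176). With the replicate number as a block the fitted value was again -0.15, with an edgeR adjusted p = 0.027, so that Mcm7 then counted as lower. Upper-quartile scaling, total counts and limma on log2(TPM + 1) also called it lower, at -0.28, -0.48 and -0.46, whereas an offset for effective length gave 0.05. Of its 31-base stretches, 33.4% are shared with other genes, mainly Gm5487, a copy with 0 counts in every library, and Ap4m1, whose exons overlap it on the opposite strand.

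TPM, which corrects for length, allows subunits to be compared. In preadipocytes, TPM was 12.6 ± 0.771 for Mcm5 and 43.8 ± 1.23 for Mcm7 (SD, n = 3), and the other 4 subunits lay between them. In adipocytes, Mcm5 was at 0.943 ± 0.0231 and Mcm7 at 31.5 ± 0.501 TPM, with Mcm2 next at 8.21 ± 1.47. The ratio of Mcm7 to Mcm5 TPM within a library was 3.24, 3.66 and 3.59 in preadipocytes and 33.0, 33.6 and 33.5 in adipocytes. The ratio of Mcm5 to Mcm6, by contrast, was 0.355 ± 0.0319 and 0.332 ± 0.0236, and its values overlapped between states.

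Mcm8 and Mcm10 are not part of the ring. MCM8 acts with MCM9 in homologous recombination, and MCM10 helps to activate the helicase at the origin. Mcm8 had 4.19, 4.82 and 4.65 CPM in preadipocyte and 3.29, 3.55 and 3.50 CPM in adipocyte libraries. No library of the one state reached into the other, but the log2 fold change was only -0.40 (SE 0.134, edgeR adjusted p = 0.0237). The call was lost without any 1 of preadipocyte libraries 2 and 3 or adipocyte libraries 1, 2 and 3, at adjusted p-values of 0.0687 to 0.0883, and with no filter or DESeq2.
Mcm10 had 3.64, 3.59 and 3.19 CPM in preadipocyte and 2.33, 2.29 and 2.77 CPM in adipocyte libraries, a log2 fold change of -0.49 (SE 0.156, edgeR adjusted p = 0.0183). Without preadipocyte library 2 the edgeR adjusted p was 0.0617 and without adipocyte library 2 it was 0.0827, and the call was also lost with no filter, with DESeq2 and in limma on log2(TPM + 1). Its effective length, the part of the transcript where reads can begin, was 2977 ± 83.2 bases in preadipocytes and 1674 ± 351 in adipocytes. An offset for that length turned the log2 fold change to 0.36, and TPM of the 2 states overlapped.

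The loading factors fell while the inhibitor did not pass the threshold. CDC6, an ATPase, recruits CDT1 and MCM to the origin.
Cdc6 (ENSMUSG00000017499.15, chr11:98907801-98923940, plus strand) had 2.51, 2.13 and 2.40 CPM in preadipocyte and 0.519, 0.514 and 0.519 CPM in adipocyte libraries. Those are 64, 54 and 66 counts against 12, 11 and 12, and 11 was the lowest count of any of the 46 genes in 1 library. The states lay well apart, with a log2 fold change of -2.17 (SE 0.204, edgeR adjusted p = 1.31e-05).
Cdt1 had 11.8, 9.48 and 11.4 CPM in preadipocyte and 3.76, 3.41 and 2.51 CPM in adipocyte libraries. The log2 fold change was -1.76 (SE 0.172, edgeR adjusted p = 1.73e-05), with no overlap.
Gmnn, the gene of geminin, had 2.15, 1.78 and 1.63 CPM in preadipocyte and 1.47, 1.68 and 1.51 CPM in adipocyte libraries. Adipocyte library 2 was above preadipocyte library 3, and the log2 fold change was -0.25 (95% interval -0.69 to 0.18, edgeR adjusted p = 0.258). Gmnn was called lower with total counts, at -0.58, and in limma on log2(TPM + 1), at -0.69. The ratio of Gmnn to Cdt1 TPM was 0.488 ± 0.107 in preadipocytes and 1.12 ± 0.153 in adipocytes (SD, n = 3), without overlap.

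The origin recognition complex had calls in both directions. Orc1 and Orc6 fell, Orc2, Orc3 and Orc5 rose and Orc4 did not pass the threshold. Among all tested genes, 37.9% were lower and 35.7% higher, so this mix is not shown to be particular to the complex. The median log2 fold change of the 6 genes was 0.19 with TMM, -0.13 with total counts and -0.42 in limma on log2(TPM + 1). The direction of the complex as a whole therefore rests on the scaling. ORC1 is the subunit whose protein level varies most over the cell cycle.
Orc1 (ENSMUSG00000028587.18, chr4:108579423-108614833, plus strand) had 2.94, 3.16 and 2.50 CPM in preadipocyte and 0.821, 0.747 and 0.865 CPM in adipocyte libraries. It was lower in every adipocyte library, with a log2 fold change of -1.81 (SE 0.194, edgeR adjusted p = 3.1e-05). Orc6 fell far less, by 0.32 (SE 0.0789, edgeR adjusted p = 0.00529), and without adipocyte library 2 its adjusted p was 0.067, and with no filter it was 0.074.

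Orc5 (ENSMUSG00000029012.11, chr5:22486485-22550429, minus strand), an ATPase-fold subunit of the core of the complex, rose most of the 46 genes. It had 18.6, 20.1 and 18.3 CPM in preadipocyte and 55.0, 61.4 and 57.8 CPM in adipocyte libraries. All adipocyte libraries exceeded all preadipocyte libraries, and the log2 fold change was 1.61 (SE 0.0830, edgeR adjusted p = 2.36e-07). On the TPM scale its means were 18.5 ± 1.29 and 39.2 ± 2.13 (SD, n = 3).
Orc2 had 16.4, 21.6 and 21.2 CPM in preadipocyte and 29.0, 33.4 and 38.6 CPM in adipocyte libraries, a log2 fold change of 0.77 (SE 0.140, edgeR adjusted p = 0.000919). Its call was lost in limma on log2(TPM + 1), at 0.36 with an adjusted p of 0.0914, and 27.9% of its 31-base stretches are shared with Nif3l1, which overlaps its exons on the opposite strand.
Orc3 had 35.3, 37.4 and 37.4 CPM in preadipocyte and 44.4, 54.0 and 59.4 CPM in adipocyte libraries. Its log2 fold change was 0.52 (SE 0.110, edgeR adjusted p = 0.00237) with TMM, 0.19 with total counts and -0.10 in limma on log2(TPM + 1), and neither of the last 2 passed the threshold.
Orc4 had 33.9, 43.5 and 42.9 CPM in preadipocyte and 29.1, 35.5 and 45.3 CPM in adipocyte libraries. The ranges overlapped, and the log2 fold change was -0.13 (95% interval -0.51 to 0.24, edgeR adjusted p = 0.49). Total counts and limma on log2(TPM + 1) called Orc4 lower, at -0.46 and -0.74, and without adipocyte library 1 the value was 0.02.

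Per length, Orc4 was the most abundant ORC transcript in preadipocytes and Orc5 in adipocytes, at 63.2 ± 7.41 and 39.2 ± 2.13 TPM. In adipocytes the means of Orc3, 38.5 ± 5.91, and Orc4, 37.7 ± 7.05, lay within the spread of Orc5. Orc1 was the least abundant in both states, at 2.59 ± 0.205 and 0.477 ± 0.104 TPM. The ratio of Orc5 to Orc1 TPM was 7.07, 7.06 and 7.32 in preadipocyte and 102.6, 80.8 and 70.4 in adipocyte libraries.

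Among the 7 genes that turn the loaded helicase on, 4 fell and 3 rose with TMM, against 37.9% and 35.7% of all tested genes. The median log2 fold change of the 7 was -0.44 with TMM and -0.77 with total counts. It was -1.18 with the effective length offset and -1.45 in limma on log2(TPM + 1), so its size rests on the scaling and the lengths. Total counts left 2 of the 3 rises and limma on log2(TPM + 1) left 1, Gins1.
Dbf4 (ENSMUSG00000002297.16, chr5:8396973-8422716, minus strand), the activator of CDC7 kinase, had 13.7, 13.8 and 14.9 CPM in preadipocyte and 1.99, 1.82 and 2.81 CPM in adipocyte libraries. It dropped clear of the preadipocyte range, with a log2 fold change of -2.67 (SE 0.166, edgeR adjusted p = 8.27e-07). Its kinase partner Cdc7 fell less, by 1.20 (SE 0.178), and the ratio of Cdc7 to Dbf4 TPM was 0.805 ± 0.0851 in preadipocytes and 2.38 ± 0.0868 in adipocytes.

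Cdc45 (ENSMUSG00000000028.15, chr16:18780447-18811987, minus strand), which rides with MCM and GINS in the active helicase, had 7.16, 5.33 and 5.92 CPM in preadipocyte and 11.5, 9.90 and 9.60 CPM in adipocyte libraries. Both states kept to their own range in CPM, with a log2 fold change of 0.75 (SE 0.144, edgeR adjusted p = 0.0013). In limma on log2(TPM + 1) the value was 0.20 and did not pass the threshold, at an adjusted p of 0.199. TPM of the 2 states overlapped, at 7.38 in preadipocyte library 1 against 6.84 and 6.93 in adipocyte libraries 2 and 3. Exons of Cdc45 overlap those of Ufd1 on the opposite strand, with which it shares 5% of its 31-base stretches. Over all libraries Ufd1 had 11683 counts against 1181 for Cdc45. Against Mcm5, its partner in the helicase, Cdc45 stood at a TPM ratio of 0.500 ± 0.0506 in preadipocytes and 7.76 ± 0.614 in adipocytes (SD, n = 3).

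Of the 4 GINS genes, whose products form 1 complex in equal parts, Gins1 and Gins4 rose and Gins2 and Gins3 fell. With 37.9% of all tested genes lower and 35.7% higher, this mix is not shown to be particular to GINS.
Gins1 had 1.60, 1.58 and 1.60 CPM in preadipocyte and 3.33, 4.06 and 4.15 CPM in adipocyte libraries, from 40 counts in its lowest library. Every adipocyte library was above the preadipocyte libraries, and the log2 fold change was 1.27 (SE 0.164, edgeR adjusted p = 0.000108).
Gins4 had 23.8, 21.6 and 21.6 CPM in preadipocyte and 33.3, 32.2 and 28.7 CPM in adipocyte libraries. The log2 fold change was 0.49 (SE 0.0904, edgeR adjusted p = 0.00101) with TMM, 0.16 with total counts and -0.03 in limma on log2(TPM + 1), the last 2 past no threshold.
Gins3 fell by 1.38 (SE 0.134). Gins2 fell by 0.44 (SE 0.120, edgeR adjusted p = 0.00904), and that call was lost without adipocyte library 2 or 3, at adjusted p-values of 0.0655 and 0.0578. Reads of Gins2 are hard to place, since 66.2% of its 31-base stretches are shared with Gse1 on the opposite strand, and its effective length rose from 2203 ± 253 to 3631 ± 13.5 bases. Per length, Gins2 fell further, from 17.7 ± 3.37 TPM in preadipocytes to 5.43 ± 0.520 TPM in adipocytes (SD, n = 3), without overlap. Within libraries, the ratio of Gins1 to Gins3 TPM was 0.486 ± 0.0338 in preadipocytes and 2.96 ± 0.0669 in adipocytes.

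**Figure D3:**
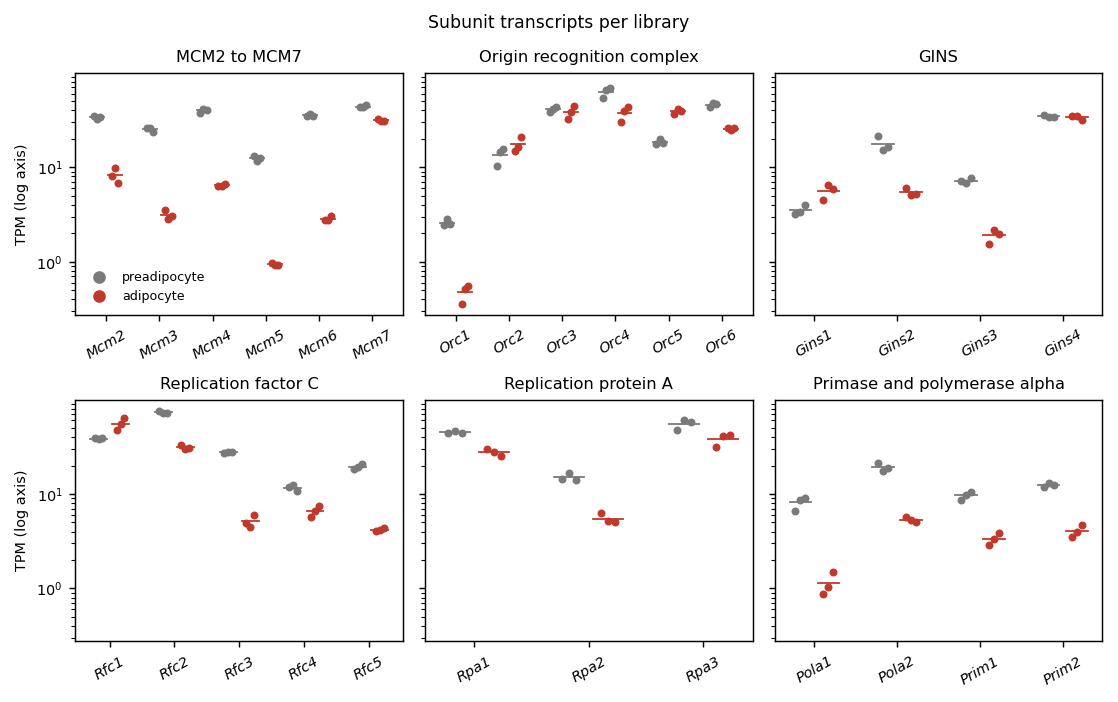
TPM of each subunit of 6 complexes in each library on a log axis, with preadipocyte libraries in gray, adipocyte libraries in red and a bar at the mean of 3 libraries. The MCM2 to MCM7 subunits spread from within a 3.49-fold range in preadipocytes to a 33.4-fold range in adipocytes, and Orc1 lies below the other ORC subunits in both states.

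The sliding clamp fell while the large subunit of its loader rose. PCNA is the ring that tethers the polymerases to DNA.
Pcna (ENSMUSG00000027342.14, chr2:132249162-132253314, minus strand) had 60.7, 61.7 and 59.1 CPM in preadipocyte and 29.6, 30.4 and 31.2 CPM in adipocyte libraries. The spread within each state was small against the gap, and the log2 fold change was -0.99 (SE 0.0713, edgeR adjusted p = 2.11e-06). Of its 31-base stretches, 23.3% are shared with a processed copy, Pcna-ps2 on chr19:9283380-9284160, which was also lower, at -1.16. With the counts of both summed, the log2 ratio of mean CPM was -1.04.

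RFC opens the clamp and closes it around DNA. Of its 5 subunit genes, Rfc2, Rfc3 and Rfc5 fell, Rfc1 rose and Rfc4 did not pass the threshold. The shares of all tested genes were 37.9% lower and 35.7% higher.
Rfc3 had 17.9, 16.9 and 17.5 CPM in preadipocyte and 4.50, 3.74 and 5.32 CPM in adipocyte libraries, a log2 fold change of -1.94 (SE 0.137, edgeR adjusted p = 1.89e-06). Rfc5 fell by 1.50 and Rfc2 by 0.63.
Rfc1 (ENSMUSG00000029191.16, chr5:65261850-65335670, minus strand), the large subunit, had 82.5, 86.0 and 88.4 CPM in preadipocyte and 134.6, 150.7 and 163.2 CPM in adipocyte libraries. It was higher in 3 of 3 adipocyte libraries, with a log2 fold change of 0.80 (SE 0.0864, edgeR adjusted p = 3.16e-05).
Rfc4 had 7.24, 6.72 and 5.95 CPM in preadipocyte and 4.89, 5.14 and 5.88 CPM in adipocyte libraries. Although the states did not overlap, the gap between the nearest libraries was narrow and the log2 fold change was -0.32 (95% interval -0.63 to -0.01, edgeR adjusted p = 0.0593). With the replicate block the edgeR adjusted p was 0.0452, and upper-quartile scaling, total counts and limma on log2(TPM + 1) called Rfc4 lower at -0.46, -0.65 and -0.74. For Rfc4, 10.5% of the 31-base stretches are shared with Eif4a2 on the opposite strand. Over all libraries Eif4a2 had 55881 counts against 876 for Rfc4. The ratio of Rfc1 to Rfc3 TPM was 1.40 ± 0.0560 in preadipocytes and 10.9 ± 1.41 in adipocytes.

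RPA is the trimer that coats single-stranded DNA. Of its genes Rpa2 and Rpa1 fell and Rpa3 did not pass the threshold, with a median log2 fold change of -0.23.
Rpa2 had 12.6, 13.7 and 11.8 CPM in preadipocyte and 8.08, 6.35 and 5.84 CPM in adipocyte libraries, a log2 fold change of -0.91 (SE 0.144, edgeR adjusted p = 0.000404).
Rpa1 fell by 0.23 (SE 0.0803, edgeR adjusted p = 0.0261), and leaving out any 1 library except adipocyte library 1 ended that call, at adjusted p-values of 0.0554 to 0.234. RLE factors, no filter, DESeq2 and the effective length offset ended it too.
Rpa3 had 13.5, 16.1 and 15.6 CPM in preadipocyte and 12.7, 15.8 and 16.3 CPM in adipocyte libraries. The ranges overlapped almost fully, and the log2 fold change was -0.01 (95% interval -0.30 to 0.28, edgeR adjusted p = 0.94). Total counts and limma on log2(TPM + 1) called Rpa3 lower, at -0.34 and -0.52, and DESeq2 gave 0.04.

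Most listed genes of primase, which lays down the RNA primers, and of the 3 replicative polymerases fell. Of these 8 genes 7 were lower and Pold2 did not pass the threshold, with a median log2 fold change of -1.53. A separate list of 8 accessory polymerase subunit and RNase H2 genes had 3 lower and 2 higher. Higher were Pole4, at 1.81, and Pold4, at 0.76, a call lost in limma on log2(TPM + 1).
Pole2 (ENSMUSG00000020974.6, chr12:69201773-69228195, minus strand), the second subunit of the leading-strand polymerase epsilon, had 4.19, 4.38 and 3.70 CPM in preadipocyte and 0.562, 0.607 and 0.562 CPM in adipocyte libraries. Its fitted log2 fold change was -2.82 (SE 0.187, edgeR adjusted p = 1.24e-06), a 7.04-fold fall.
Pole, the catalytic subunit, fell by 1.73. Pola1 and Pold1, the catalytic subunits of polymerases alpha and delta, had log2 fold changes of -2.29 and -2.23, and Pola2 had -1.33. The primase genes Prim1 and Prim2 were at -1.07 and -1.09, and their TPM ratio was 0.772 ± 0.0591 in preadipocytes and 0.821 ± 0.00906 in adipocytes, with overlap.

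Pold2, an accessory subunit of polymerase delta, had 37.8, 28.3 and 31 CPM in preadipocyte and 31.5, 24.0 and 19.2 CPM in adipocyte libraries. Adipocyte library 1 lay above preadipocyte libraries 2 and 3, and the log2 fold change was -0.38 (95% interval -0.79 to 0.03, edgeR adjusted p = 0.0843). With the replicate block the value was -0.39 with an edgeR adjusted p = 0.00104, and without adipocyte library 1 it was -0.57 with an adjusted p of 0.00359. Upper-quartile scaling, total counts and limma on log2(TPM + 1) gave -0.51, -0.71 and -0.93, all called lower.

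Both genes for joining Okazaki fragments, the short pieces of the lagging strand, fell. Lig1, the ligase that seals them, had 26.7, 24.3 and 25.7 CPM in preadipocyte and 5.45, 5.79 and 4.33 CPM in adipocyte libraries. The log2 fold change was -2.30 (SE 0.124, edgeR adjusted p = 3.2e-07).
Fen1, the nuclease that trims the flaps, had 16.7, 16.9 and 15.7 CPM in preadipocyte and 7.83, 6.07 and 5.97 CPM in adipocyte libraries, a log2 fold change of -1.31 (SE 0.129, edgeR adjusted p = 1.74e-05). Of its 31-base stretches, 79.6% are shared with other genes, mainly Gm10143 on the opposite strand, to which 73.4 counts were assigned over all 6 libraries against 1738 to Fen1.

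The 3 genes listed here for rebuilding chromatin behind the fork all fell, and with TMM scaling Chaf1b and Uhrf1 fell furthest of the 46. A separate list of 11 fork nucleosome assembly genes had 8 lower and 1 higher. The higher gene was Asf1b, at 0.89, a call lost in limma on log2(TPM + 1). CAF-1, whose subunits include those from Chaf1a and Chaf1b, places histones on new DNA. UHRF1 brings the maintenance DNA methyltransferase to it.
Chaf1b (ENSMUSG00000022945.12, chr16:93883901-93906115, plus strand) had 11.9, 9.92 and 9.51 CPM in preadipocyte and 0.605, 0.561 and 0.519 CPM in adipocyte libraries. The fitted log2 fold change was -4.21 (SE 0.180, edgeR adjusted p = 7.67e-08), an 18.4-fold fall.
Uhrf1 had 19.0, 16.6 and 19.3 CPM in preadipocyte and 1.38, 1.07 and 1.34 CPM in adipocyte libraries, a log2 fold change of -3.85 (SE 0.146, edgeR adjusted p = 3.83e-08).
Chaf1a had 22.8, 20.6 and 19.4 CPM in preadipocyte and 7.61, 6.26 and 5.80 CPM in adipocyte libraries, a log2 fold change of -1.67 (SE 0.129, edgeR adjusted p = 3.35e-06). Of its 31-base stretches, 51.0% are shared, mainly with Ubxn6. The ratio of Chaf1a to Chaf1b TPM was 0.643 ± 0.0518 in preadipocytes and 3.62 ± 0.511 in adipocytes.

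Across these complexes, subunit levels spread further apart in adipocytes. The highest subunit mean over the lowest, in TPM, was 3.49 in preadipocytes and 33.4 in adipocytes for MCM2 to MCM7. For ORC it was 24.4 and 82.2, for GINS 9.89 and 17.9, and for RFC 6.26 and 13.2. For RPA it was 3.69 and 6.96, and for primase with polymerase alpha 2.37 and 4.73. No such spread is given for other groups of genes. The 2 widest rest on low adipocyte means, 0.943 TPM for Mcm5 and 0.477 TPM for Orc1. Ratios taken within a library do not depend on the scaling between libraries, though they do depend on the lengths used for TPM. Of 22 pairs of partner genes, picked after the values were seen and so not tested, 20 had ratios without overlap between states. No share for pairs of other genes is given, and CPM of 76.5% of single tested genes did not overlap either. The count of 20 is therefore not a trait shown to be particular to these pairs.

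**Figure D4:**
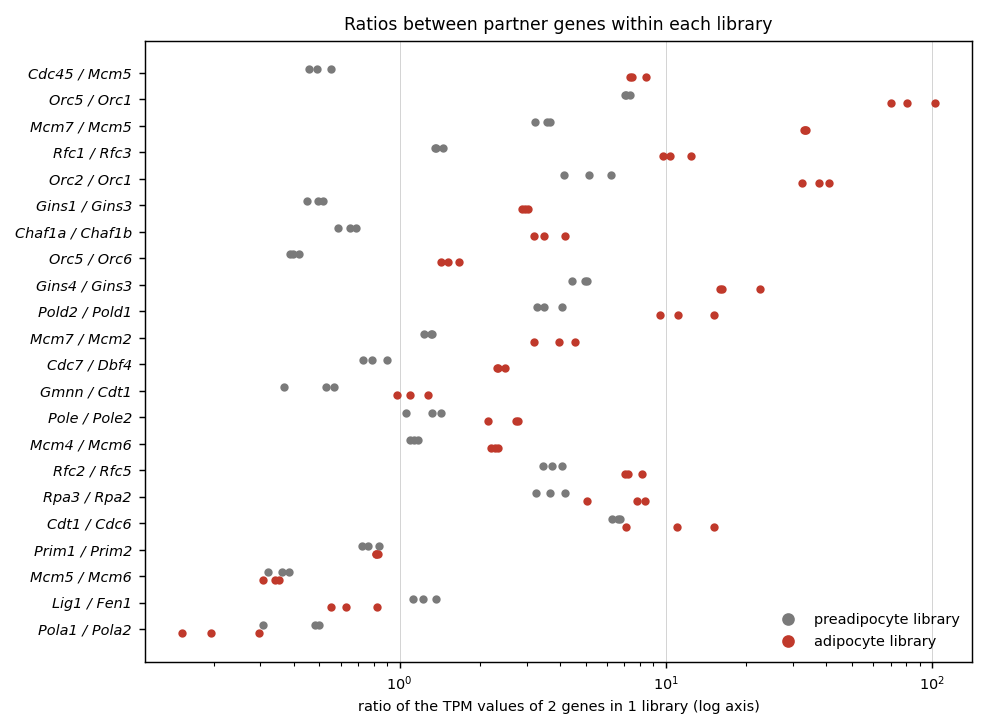
Ratio of the TPM values of 2 partner genes within each library, on a log axis, for 22 pairs, with preadipocyte libraries in gray and adipocyte libraries in red. The points of the 2 states lie apart for 20 pairs and overlap for Prim1 over Prim2 and Mcm5 over Mcm6. No share for pairs of other genes is given.

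Summed over the 46 genes, TPM was 1021, 1044 and 1046 in preadipocyte and 506.5, 532.7 and 552.1 in adipocyte libraries. The sums did not overlap, and the exact 2-sided permutation p was 0.1, the smallest that 3 against 3 libraries can give. Summed CPM was 1084 ± 17.5 in preadipocytes and 746.4 ± 16.8 in adipocytes (SD, n = 3). Mitochondrial genes and their nuclear copies took 12.6% ± 1.69 of TPM in preadipocytes and 27.1% ± 2.46 in adipocytes, and with them left out the summed TPM was 1188 ± 38.3 and 729.2 ± 55.6. No gene of the 46 had a mean under 1 TPM in preadipocytes, and 6 had one in adipocytes: Mcm5, Cdc6, Orc1, Pole2, Chaf1b and Uhrf1. The order of levels was largely kept, with a Spearman correlation of 0.76 and a Pearson correlation of 0.77 between log2 TPM in the 2 states over the 46 genes, which share their libraries and lengths.

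Reads are shared between genes for some of these values. Over 10% of the 31-base stretches of 13 genes also occur in other genes. For the other 33 genes, 24 were lower, 6 higher and 3 not past the threshold, with a median log2 fold change of -1.20. The exons of 14 of the 46 genes overlap those of a gene on the opposite strand, and the strandedness of the libraries is not given in the sources used here.

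Other genes of the same pathways were read from lists of textbook members. Their counts stand beside 37.9% lower and 35.7% higher among all tested genes, or 56.6% and 22.2% in limma on log2(TPM + 1), and the shares in several of these short lists lie near those. Further origin and fork factors had 6 lower and 1 higher of 13 with a median log2 fold change of -0.31. Ticrr, which brings CDC45 to the helicase, led at -3.01, from 5 to 10 counts in an adipocyte library (2.54 ± 0.386 to 0.310 ± 0.111 CPM, SD, n = 3, edgeR adjusted p = 1.31e-05). The 1 higher gene, the acetyltransferase gene Kat7 at 0.44, was at -0.01 in limma on log2(TPM + 1), where the list had 10 lower and 0 higher. Accessory polymerase subunits and RNase H2 genes had 3 lower and 2 higher of 8, with a median of -0.06 that rose just above 0 with no low-count filter and reached 0.02 both without adipocyte library 2 and with the effective length offset. Pole4, a small histone-fold subunit of polymerase epsilon, led that list at 1.81 (41.4 ± 1.51 to 145.2 ± 9.78 CPM, edgeR adjusted p = 9e-08). Pold4 was higher at 0.76, a call lost in limma on log2(TPM + 1), at 0.24.

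Alternative clamp loaders and cohesion genes had 4 lower and 1 higher of 7, led by Dscc1 at -3.30, from 1 to 4 counts in an adipocyte library, with Rad17 higher at 0.63, a call lost with total counts, at 0.30, and in limma on log2(TPM + 1), at 0.09. Fork nucleosome assembly genes had 8 lower and 1 higher of 11, led by the maintenance methyltransferase gene Dnmt1 at -1.65. The histone chaperone gene Asf1b was higher at 0.89, a call lost in limma on log2(TPM + 1), at 0.19. Topoisomerase genes had 3 lower and 0 higher of 4, led by Top2a at -3.14. Genes of deoxynucleotide supply had 5 lower and 1 higher of 8, with the ribonucleotide reductase gene Rrm2 at -1.51 and the pyrophosphatase gene Dctpp1 at 1.07. The lower count was 4 with RLE factors, no filter, DESeq2, the effective length offset or any 1 library left out except preadipocyte library 2. It was Dut, at -0.25 and named after its values were seen, that lost its call.

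Licensing control and S-phase kinase genes had 4 lower and 4 higher of 9. Ccna2, the S-phase cyclin gene, led at -2.87 (edgeR adjusted p = 6.45e-07). Higher were the cyclin E genes Ccne1, at 1.18, and Ccne2, at 0.89, Fzr1, an activator of the APC/C ubiquitin ligase, at 0.70, and the ubiquitin ligase scaffold gene Cul4a, at 0.46. In limma on log2(TPM + 1), Ccne1 and Fzr1 stayed higher while Ccne2 was at 0.35, past no threshold, and Cul4a was at -0.10. The median of this list was 0.15 with TMM, -0.18 with total counts and -0.36 in limma on log2(TPM + 1). All 8 proliferation markers were lower with a median of -2.38, led by Mki67, whose CPM was 26.1, 30.3 and 31.1 in preadipocyte and 2.51, 1.78 and 2.51 in adipocyte libraries.

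**Figure D5:**
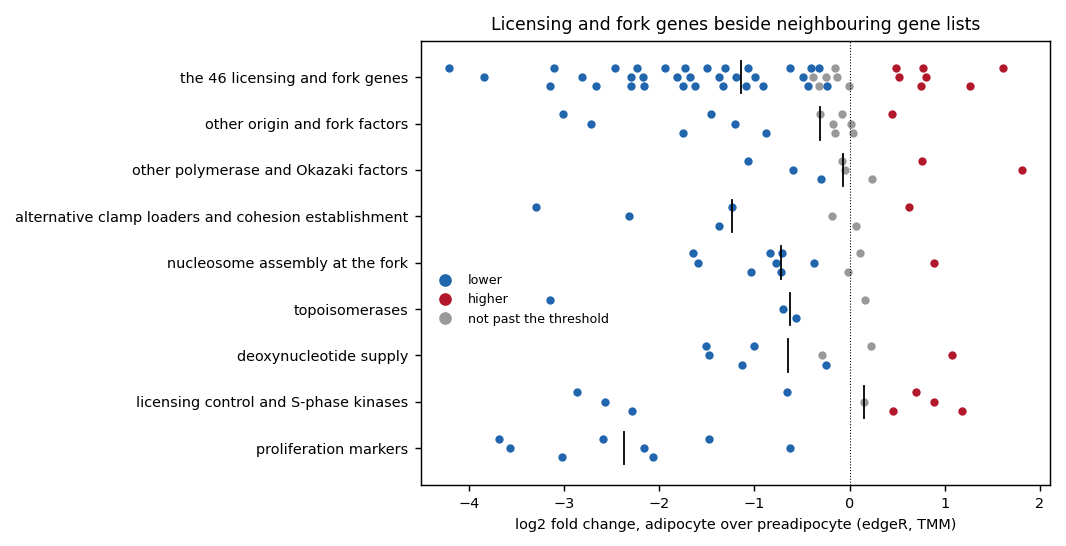
Fitted log2 fold change (edgeR, TMM) of each gene of the 46 and of 8 neighbouring lists, with a bar at each list's median. Blue genes were lower, red genes higher and gray genes not past the threshold. Medians run from -2.38 for proliferation markers to 0.15 for licensing control and S-phase kinases, a value that is -0.18 with total counts and -0.36 in limma on log2(TPM + 1).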

How the data were processed

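RNA from 6 libraries was quantified by the authors. The submitters' processing notes name DESeq2, RSEM, Bowtie2 and Bowtie and the builds mm10 and GRCm38, without versions or roles. Per the file headers, each of the 6 deposited tables gives expected counts, TPM and effective length per gene. The deposited expected counts are estimates that divide reads shared between genes by a model, so genes with near-identical copies or overlapping neighbours are uncertain. The deposited TPM values are scaled by the authors within each library and corrected for length. The deposited effective length, another value per gene and library, served only in an alternative and beside 2 results. FPKM was not used here.

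Gene identifiers, stripped of versions, were looked up in GENCODE M21, which held 54723 of 54752. Expected counts, 22496486 to 26314076 per library, were rounded to whole numbers, filtered with filterByExpr and tested over all genes with edgeR 4.0.16 (R 4.3.3), with TMM scaling, the cell state as sole factor, the quasi-likelihood F-test and a Benjamini-Hochberg limit of 0.05. CPM is per TMM-scaled library size. The precision at low levels is limited by counts, which were as low as 11 in 1 library for the 46 genes and lower for some genes of the neighbouring lists. Alternatives were upper-quartile, RLE and total-count scaling, no filter, DESeq2 1.42.0, limma 3.58.1 on log2(TPM + 1) and log2(TPM + 0.1), a replicate block and leaving out each library. Added after seeing the data were the effective length offset, the subset with few shared 31-base stretches, TPM without mitochondrial genes, Pcna summed with its copy, and leaving out both libraries numbered 1.

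Deviations from the group means correlated at 0.66, 0.30 and 0.26 between the libraries numbered 1, 2 and 3, all over the limit of 0.1 set for pairing. The main fit, from which the calls above come, did not use the numbers. They entered only in the replicate block, where 36 of the 46 genes were lower and 7 higher. Only 4 of 6 libraries correlated best with their own number, since preadipocyte library 2 and adipocyte library 3 correlated best with each other. The labels do not say what a number stands for. No 2 libraries agreed within counting noise, since the closest pair had chi-square over degrees of freedom of 2.85 on 15825 genes.

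The 46 genes and all lists were chosen with earlier results of these data known, so no list is independent evidence. By rule, values in every library are given in each role for the gene with the largest fall and the one with the smallest fall or largest rise, for every gene not called lower, and for Pcna, Cdc6, Cdt1 and Gmnn. Of each neighbouring list the leading called gene and the exceptions in direction are named. Promoters of Gins1, Mcm4, Prim2, Pole, Gmnn, Rfc2, Gins2 and Gins4 were not used here.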

Additional observations from a re-analysis of the deposited data

How the results depend on the processing

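Of the 46 genes, 28 to 33 were lower and 7 higher when 1 library was left out, with no share of all tested genes given beside these counts. Limma on log2(TPM + 1), with or without the filter, and on log2(TPM + 0.1) left 3 higher against 7. The median log2 fold change of the 46 genes, -1.15, was -1.28 with upper-quartile scaling, -1.47 with total counts, -1.43 in limma on log2(TPM + 1) with or without the filter and -1.69 on log2(TPM + 0.1). Leaving out 1 library gave -1.19 to -1.04, and leaving out both libraries numbered 1 gave -1.04. The log2 ratio of summed TPM, -0.97, was -0.54 for summed CPM and -0.70 without mitochondrial genes and copies. The replicate block brought Mcm7, Pold2 and Rfc4 past the threshold (36 lower, 7 higher) and changed no other call among the 46 genes.

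Signs turned for 6 genes. The effective length offset gave 0.048 for Mcm7 and 0.36 for Mcm10. The 3 limma fits gave -0.10 for Orc3 and -0.030 or, with log2(TPM + 0.1), -0.031 for Gins4. Leaving out 1 library gave -0.26 to 0.022 for Orc4, above 0 without adipocyte library 1. Rpa3 was at 0.043 with RLE factors and with DESeq2 and 0.050 without the filter. Leaving out 1 library gave -0.084 to 0.11 for Rpa3, above 0 without preadipocyte library 2 or 3 or adipocyte library 1, and leaving out both libraries numbered 1 gave 0.024. Causes were not tested. No filter left 29 lower, without Mcm8, Mcm10, Orc6 and Rpa1, DESeq2 left 30, without Mcm8, Mcm10 and Rpa1, and RLE factors left 32, without Rpa1. The effective length offset left 31, without Mcm10 and Rpa1. Depth limits the low genes, as Cdc6 had 11 counts in its lowest adipocyte library and Gins1 had 40 in its lowest preadipocyte library.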
